A study of Mus musculus with 48 samples.

Results

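The 10 genes described here carry out the making, conjugation, export, recapture and sensing of bile acids: *Cyp7a1*, *Cyp8b1*, *Cyp27a1*, *Baat*, *Slc10a1*, *Abcb11*, *Slc10a2*, *Fabp6*, *Nr1h4* and *Nr0b2*. They were taken as every probe whose accession maps to one of these symbols, which gave 13 probes of the 41174 on the array and 10 of its 18434 named genes. *Cyp7a1*, *Baat* and *Slc10a2* have 2 probes each. Where a gene had several probes, the probe with the highest mean Cy3 signal stands for it.

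RNA came from liver and colon of C57/BL6 mice aged 12 weeks, and all 4 groups were given a high-fat diet. Diet H was sufficient in selenium and folate and diet L deficient (supplemented and marginally deficient, in the words of the methods). The methods put both nutrients above the recommended requirements in diet H and below them in diet L. The first letter of HH, HL, LH and LL gives the diet of the dam through gestation and lactation. The second gives that of the offspring, male per the methods, from weaning. Per the methods, mice were fasted and then fed again before tissue was taken.

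Liver RNA came from 5 HH mice and 6 mice of each other group, since 2 HH arrays carry the same animal and were averaged. For colon each group had 6 mice. Each array held mouse RNA labelled with Cy3 and a common reference RNA labelled with Cy5, and each slide held 1 array of each group. Values are log2 ratios of mouse over reference for a probe, so 0 is the level of the reference. The deposited description gives the reference as RNA of a whole pregnant mouse with its foetus and the methods as pooled intestinal and liver RNA, which changes what 0 stands for but no difference between mice. Spots well above background in Cy3 made up 55.09% to 65.96% of a liver array and 66.76% to 73.73% of a colon array. *Xist*, a transcript of female cells, had a log2 Cy3 signal above 9 on 1 liver and 6 colon arrays. The methods describe male mice. Leaving those arrays out changed no call of a member between diets or tissues. On that liver array, HL replicate 2, the Y-linked *Eif2s3y* had a signal of 6.29. It had 6.3, 7.37 and 6.38 on the colon arrays HL replicate 5, LL replicate 1 and LL replicate 3. On every other array *Eif2s3y* was above 9, including the colons HH replicate 1, HH replicate 5 and LL replicate 5 with high *Xist*. The sex of these mice was not tested.

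Bile acids are made from cholesterol in hepatocytes, where CYP7A1 starts the main route, CYP8B1 sets the share of cholic acid and CYP27A1 works on the side chain and starts the alternative route. BAAT joins the acids to taurine or glycine, ABCB11 pumps them into bile, SLC10A2 recovers them from the gut lumen, FABP6 carries them through the enterocyte and SLC10A1 takes them from portal blood back into the hepatocyte. The receptor FXR, encoded by *Nr1h4*, senses bile acids and induces SHP, encoded by *Nr0b2*, which represses *Cyp7a1* and *Cyp8b1*.

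The promoter sequence is shown for *Slc10a1*, *Cyp8b1* and *Nr0b2*. It is read 5′ to 3′ along the gene and ends at the base before the annotated start (RefSeq, GRCm38.p6). Such entries were matched for 8 of the 10 genes, at 9 starts. In that build the gene *Slc10a1* spans chr12:80953185-80968705, *Cyp27a1* chr1:74713148-74737897, *Slc10a2* chr8:5083219-5105287, *Cyp7a1* chr4:6265612-6275632, *Cyp8b1* chr9:121914356-121916305 and *Nr0b2* chr4:133553376-133556686. *Slc10a1* has 2 starts, with upstream sequence at chr12:80968706-80968955 and chr12:80968080-80968329, both on the minus strand. The sequence of *Cyp8b1* lies at chr9:121916306-121916555 on the minus strand and that of *Nr0b2* at chr4:133553126-133553375 on the plus strand. Capitals mark TATAAA or AGGTCA, the core letters bound by many nuclear receptors, on either strand.
Slc10a1, first start: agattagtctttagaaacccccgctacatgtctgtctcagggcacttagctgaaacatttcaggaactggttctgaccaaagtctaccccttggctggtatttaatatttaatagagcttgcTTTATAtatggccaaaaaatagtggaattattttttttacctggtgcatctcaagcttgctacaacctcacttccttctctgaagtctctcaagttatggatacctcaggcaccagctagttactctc
Slc10a1, second start: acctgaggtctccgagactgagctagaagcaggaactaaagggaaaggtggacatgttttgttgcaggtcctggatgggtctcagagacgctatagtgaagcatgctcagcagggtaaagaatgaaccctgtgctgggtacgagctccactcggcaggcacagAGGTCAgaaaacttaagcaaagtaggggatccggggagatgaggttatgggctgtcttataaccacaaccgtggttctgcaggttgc
Cyp8b1: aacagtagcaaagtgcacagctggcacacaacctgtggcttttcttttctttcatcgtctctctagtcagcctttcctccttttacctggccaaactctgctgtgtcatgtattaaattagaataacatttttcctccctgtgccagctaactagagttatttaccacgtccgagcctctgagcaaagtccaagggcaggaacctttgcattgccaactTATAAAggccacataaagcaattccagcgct
Nr0b2: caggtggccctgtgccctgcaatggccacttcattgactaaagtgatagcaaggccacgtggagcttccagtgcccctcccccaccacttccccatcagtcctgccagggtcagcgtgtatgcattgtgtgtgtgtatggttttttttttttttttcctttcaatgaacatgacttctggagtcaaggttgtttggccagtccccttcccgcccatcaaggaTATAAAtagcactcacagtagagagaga
*Cyp8b1* and *Nr0b2* share TATAAA at a like place, 31 and 28 bases before the start. *Slc10a1* has the complement of TATAAA 128 bases before its first start and AGGTCA 87 bases before its second. Of the genes not shown, *Fabp6* has the complement of TATAAA 29 bases before its start. *Abcb11* and *Nr1h4* have the complement of AGGTCA 56 and 214 bases before theirs. *Cyp27a1* and *Slc10a2* hold neither. Among 32851 promoters searched over the same 250 bases, 12.4% hold TATAAA and 14% hold AGGTCA on either strand. CAAGGTCA (in 1.33% of all promoters) and the inverted repeat of AGGTCA with a 1-base gap, known as the FXR element (in 0.00609%), were found at none of the 9 starts searched. A match is a string of letters and not a binding site.

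Liver and colon were compared first, which shows where each gene is used and checks the labels of the tissues. All 10 genes differed between liver and colon at a fold change over 1.5 and an adjusted p under 0.05 (limma, both tissues in a joint fit, Benjamini-Hochberg over all probes), 8 of them higher in liver and 2 higher in colon. Of all 41171 probes tested, 30.3% were called, 14.6% higher in liver and 15.7% higher in colon. In 9 of the 10 genes the 23 livers and 24 colons did not overlap, against 23.2% of all probes. The labels share no animal number between liver and colon, although both may come from the same mice. The joint fit treats them as independent, and its p-values rest on that.

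The genes of synthesis and conjugation were higher in liver throughout. *Cyp7a1* had log2 ratios of 3.03 to 5.68 in liver (median 4.60) and of -3.01 to -2.34 in colon (median -2.55), a difference of 7.02 on the log2 scale. Its probe was well above background on only 4 of 24 colon arrays, so the colon side is mostly background signal, and the difference ran from 6.4 to 9.61 over the alternatives. Its other probe was above background on none of them, which gives only a bound, at least 19.1-fold higher in liver (mean log2 Cy3 signals of 10.57 in liver and 6.31 in colon, with the colon signal floored at the dimmest detected probe of each array). *Baat*, detected on every colon array, stood 7.18 ± 0.05 (SE) higher in liver on the log2 scale, a fold of 145 (adjusted p = 1.82e-56). *Cyp8b1* was 5.19 higher, but its probe was above background on only 2 of 24 colon arrays and the value ran from 4.47 to 8.24 over the alternatives. *Cyp27a1* was 2.78 ± 0.07 higher and above background on every colon array. CYP27A1 is known to be made in many tissues besides the liver.

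The carriers divided by where they work. The hepatocyte pump *Abcb11* was 6.56 ± 0.08 higher in liver on the log2 scale and the hepatocyte importer *Slc10a1* 5.88 ± 0.07 higher. The intestinal genes ran the other way. *Slc10a2*, the apical importer of the gut and of bile ducts, had log2 ratios of -1.69 to 0.37 in liver and of 1.60 to 2.97 in colon, a difference of -3.18 ± 0.11, and its other probe gave -2.67 ± 0.08. *Fabp6*, the ileal bile acid carrier, ranged from -2.01 to -1.38 in liver and from -1.19 to 1.37 in colon, a difference of -1.54 ± 0.14 on the log2 scale. Both intestinal genes were detected on every liver array.

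Of the sensors, *Nr0b2* was 3.04 ± 0.10 higher in liver on the log2 scale. *Nr1h4* was the gene with overlapping tissues, at 0.81 to 1.77 in liver and 0.43 to 1.31 in colon. Its difference of 0.60 ± 0.08, a fold of 1.51, lies at the threshold, and was 0.12 with an adjusted p of 0.168 when arrays were centred on the median in place of loess. Liver and colon arrays were also scanned on separate days, so tissue and scan day cannot be told apart.

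**Figure D1:**
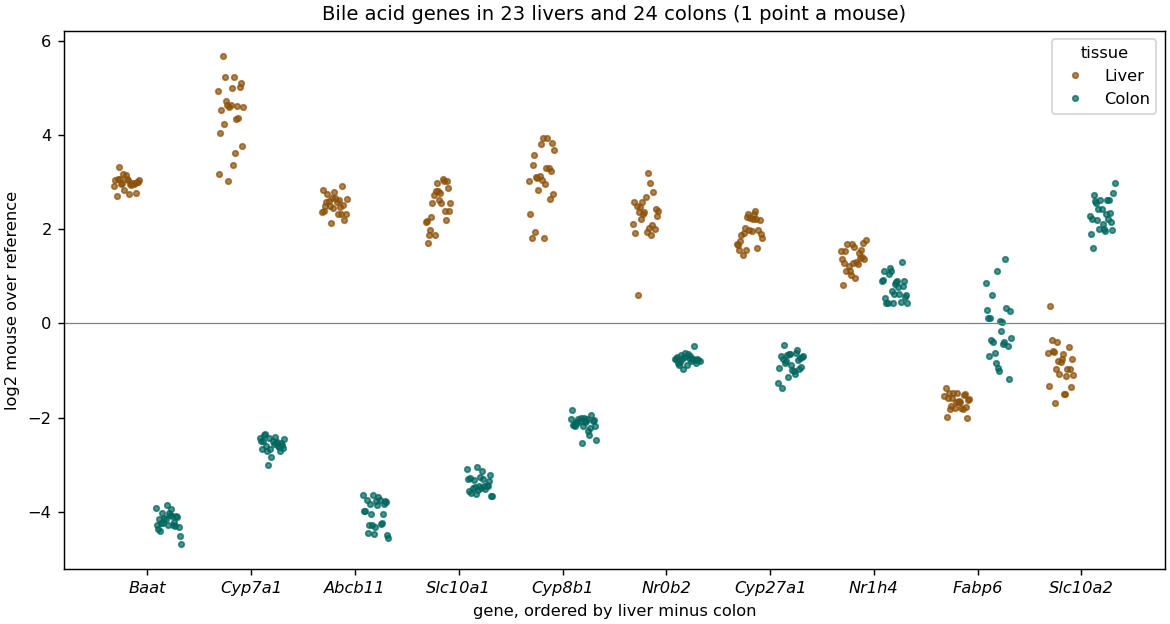
The log2 ratio of mouse over reference (vertical axis) is plotted for each of the 10 genes (horizontal axis, ordered by the difference between tissues), with 1 point per mouse for 23 livers (brown) and 24 colons (green). Only *Nr1h4* has overlapping tissues, and *Fabp6* and *Slc10a2* are higher in colon.

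A list of 35 further bile acid genes was measured the same way. Of 12 other synthesis enzymes, 11 were called higher in liver and 1 (*Ch25h*, a cholesterol hydroxylase, at -1.53 on the log2 scale) higher in colon. Of 12 other carriers, 6 were higher in liver and 5 in colon, among them *Slc51a* (-4.65) and *Slc51b* (-3.47), the subunits of the basolateral exporter of the enterocyte. Of 11 other regulators, 7 were higher in liver and 1, the vitamin D receptor gene *Vdr* (-4.08), in colon. The genes named in this paragraph were chosen after their values were seen.

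The livers of the 4 diet groups were compared next, which asks whether the selenium and folate supply of the dam or of the offspring moved these genes. In limma with the 4 liver groups, 0 of the 10 genes passed a fold change over 1.5 with an adjusted p under 0.05 in any of the 6 comparisons, and neither did any other probe (0%). At an unadjusted p under 0.05, 3 of the 10 genes differed between LH and HH, against 12% of all 41171 probes, 1 between HL and HH (4.38% of all probes) and 1 between LL and HH (3.45%). None of the 10 did so between LL and HL, LL and LH or LH and HL (3.08%, 6.38% and 1.74% of all probes). The direction of these differences follows from the dyes in the labels, and for LH against HH it is opposite to the one that the legend of the study's own gene listing gives. At the same thresholds the study reported differentially expressed liver probes between HH and each other group, most of them between HH and LH. The fit here called none, and the reason was not tested.

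*Slc10a1*, which encodes the main importer of bile salts in the hepatocyte, stood furthest apart. Its log2 ratios in the HH livers were 2.15, 2.18, 1.71, 1.87 and 1.99. In the LH livers the lowest was 2.56, the median 2.78 and the highest 3.06. In the LL livers they were 2.20, 2.47 and 3.03, and in the HL livers 1.88, 2.64 and 2.98. No HH liver reached the lowest LH or the lowest LL liver, while the lowest HL liver lay within the HH range. Of the 10 genes, 2 had groups that did not overlap between LH and HH (1.54% of all probes) and 1 between LL and HH (0.333%). None did between HL and HH, LL and HL, LL and LH or LH and HL (0.202%, 0.109%, 0.26% and 0.0656% of all probes).

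The difference of LH from HH in *Slc10a1* was 0.83 ± 0.17 (SE) on the log2 scale, a fold of 1.78, with an unadjusted p of 6.59e-05 and an adjusted p of 0.16. It was 0.55 ± 0.17 for HL and 0.59 ± 0.17 for LL (unadjusted p = 0.00345 and 0.00203, adjusted p = 0.952 and 1 in limma). The effect of dam diet over both offspring diets was 0.43 ± 0.12 (unadjusted p = 0.00123, adjusted p = 0.999), a contrast in which 2 of the 10 genes had an unadjusted p under 0.05, against 4.14% of all probes. None did so for offspring diet (1.37%). The interaction, the offspring effect after a low dam diet minus that after a high dam diet, was -0.79 ± 0.23 (unadjusted p = 0.00267, adjusted p = 0.298), where 2 of the 10 genes and 11.4% of all probes had an unadjusted p under 0.05. Within slides LH exceeded the HH array in 6 of 6 slides, by 0.44 to 1.23, and HL and LL did so in 6 of 6 slides as well, by as little as 0.01 and 0.03. The HH arrays of slides 3 and 6 are the same animal.

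The call for *Slc10a1* differed between settings. It passed with all 8 groups of both tissues in a joint fit (adjusted p = 0.00464), with LH and HH alone (0.0364) and with the 2 arrays of 1 HH animal counted as 2 mice (0.0487, which gives that animal double weight). Those settings called 106, 18 and 6 probes in all, 0.257%, 0.0437% and 0.0146% of those tested. Over all alternatives the adjusted p ran from 0.00464 to 0.347 and the difference from 0.74 to 1.08. Leaving out each liver gave 0.76 to 0.88.

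**Figure D2:**
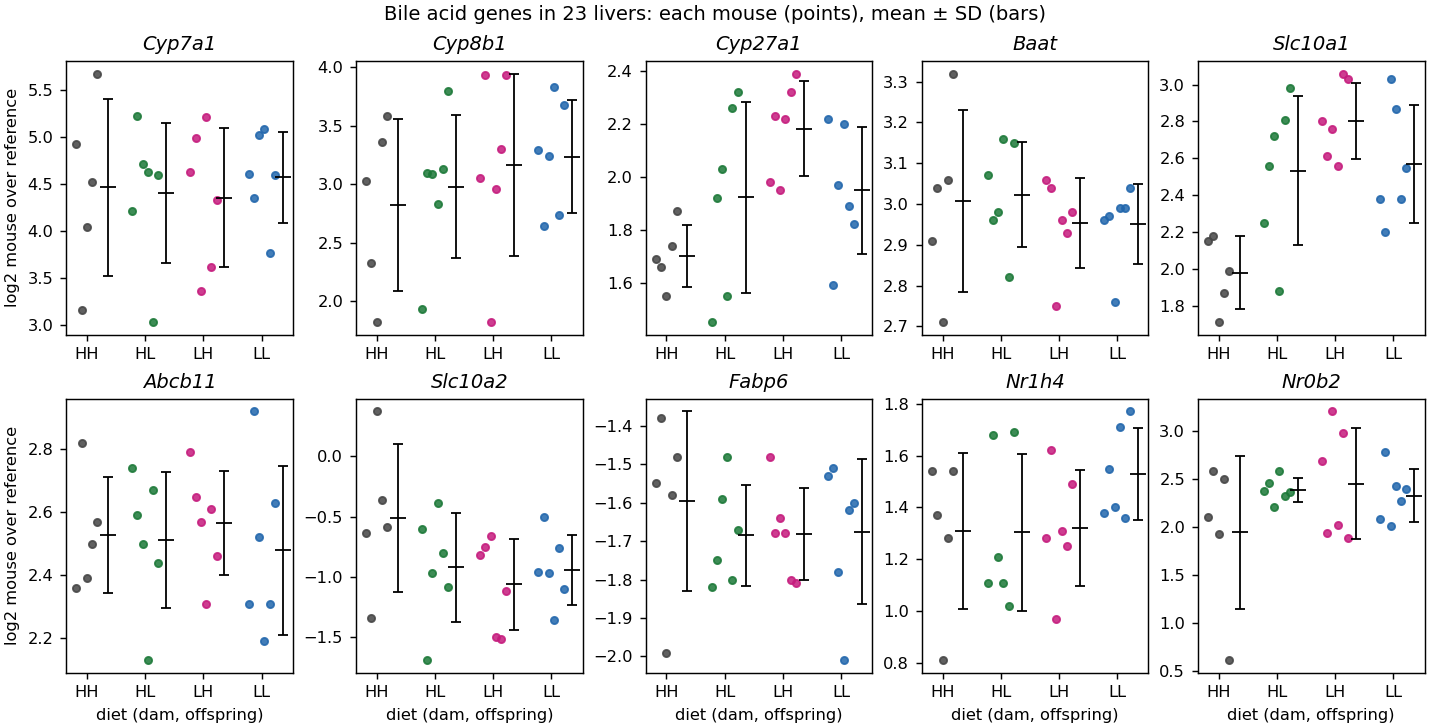
The log2 ratio of mouse over reference in liver (vertical axes, each on its own scale) is plotted for the 10 genes by diet group, with 1 point per mouse and a bar for the mean ± SD of 5 HH, 6 HL, 6 LH and 6 LL mice. *Slc10a1* is lower in the 5 HH livers, at 1.71 to 2.18, than in the 6 LH livers, while *Cyp7a1* and *Cyp8b1* range widely in every group.

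*Cyp27a1* was the other gene whose LH and HH livers did not overlap. Its log2 ratios were 1.69, 1.66, 1.55, 1.74 and 1.87 in the HH livers, while in the LH livers the lowest was 1.95, the median 2.22 and the highest 2.39. HL (1.45 to 2.32) and LL (1.59 to 2.22) overlapped with both. LH differed from HH by 0.48 ± 0.14 on the log2 scale, a fold of 1.39 and so under the fold threshold, with an unadjusted p of 0.00254 and an adjusted p of 0.237. LH was above HH in 6 of 6 slides, by 0.29 to 0.84. The dam effect was 0.25 ± 0.10 (unadjusted p = 0.0168) and the interaction -0.45 ± 0.19 (unadjusted p = 0.029).

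*Slc10a2* pointed the other way. Its log2 ratios were -0.64, -1.34, 0.37, -0.36 and -0.59 in the HH livers and -1.51, -0.97 and -0.66 as lowest, median and highest in the LH livers. The groups overlapped. The difference was -0.55 ± 0.25 on the log2 scale (unadjusted p = 0.0359, adjusted p = 0.383), and the other probe gave -0.15 ± 0.18 (unadjusted p = 0.43). Within slides LH lay below HH in 5 of 6 slides, with a median difference of -1.03. The difference was -0.33 without HH replicate 3 (unadjusted p = 0.167) and -0.76 without HH replicate 2 (unadjusted p = 0.00417). *Slc10a2* is known in liver from bile duct cells, and the mean log2 ratio over 6 bile duct markers overlapped between the groups (medians of -2.57 in HH and -2.81 in LH). In bulk tissue fewer such cells and less RNA per cell cannot be told apart.

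**Figure D3:**
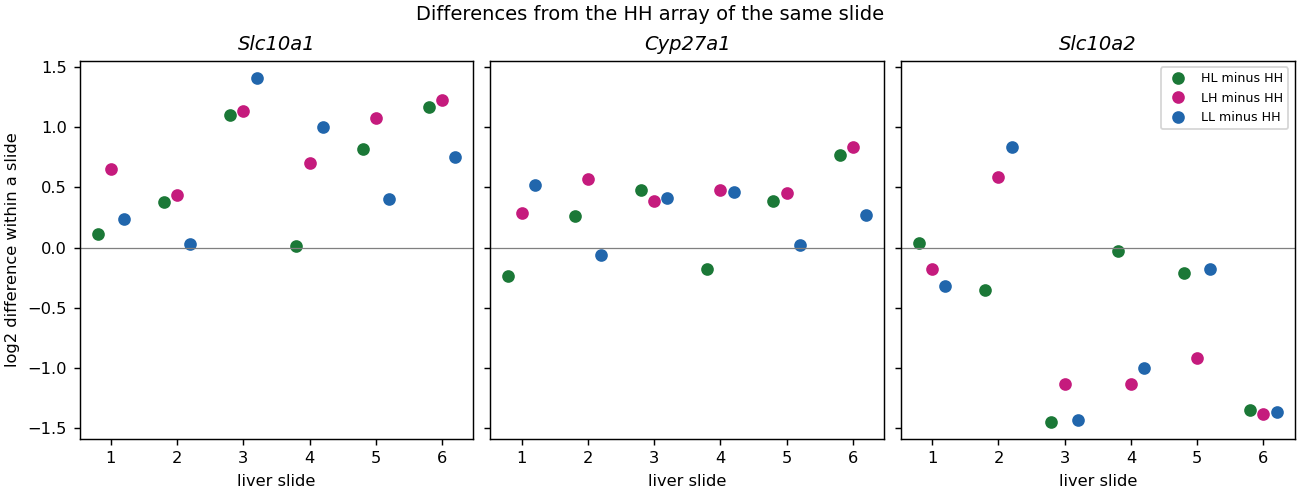
The difference in log2 ratio from the HH array of the same slide (vertical axis) is plotted for HL, LH and LL on each of the 6 liver slides (horizontal axis) for *Slc10a1*, *Cyp27a1* and *Slc10a2*. Every point of *Slc10a1* and all 6 LH points of *Cyp27a1* lie above 0, and slides 3 and 6 share their HH animal.

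*Cyp7a1* and *Cyp8b1*, which encode the enzymes that FXR and SHP hold in check, had differences between diets that lay within their spread. *Cyp7a1* averaged 4.47 ± 0.95 (SD, n = 5) in HH, 4.40 ± 0.75 (n = 6) in HL, 4.36 ± 0.74 (n = 6) in LH and 4.57 ± 0.48 (n = 6) in LL on the log2 scale. The 95% interval of its LH minus HH difference ran from -0.96 to 0.74, so an unequal level of up to that size could not be seen. That difference was -0.11, while the other *Cyp7a1* probe gave 0.31 ± 0.29, with an interval from -0.30 to 0.91. *Cyp8b1* averaged 2.82 ± 0.73 in HH, 2.98 ± 0.61 in HL, 3.16 ± 0.78 in LH and 3.24 ± 0.48 in LL, with an interval from -0.42 to 1.1. Their spread within groups, 0.74 and 0.66, was larger than that of 99.6% and 99.3% of liver probes, whose median was 0.17.

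*Nr0b2*, the repressor, had log2 ratios of 2.10, 2.58, 1.92, 2.5 and 0.61 in HH, so that 1 mouse stood far below the rest, and LH differed from HH by 0.51 ± 0.28 (unadjusted p = 0.0776). The same mouse, HH replicate 5, had the highest *Cyp7a1* of all livers at 5.68. *Baat*, *Abcb11*, *Fabp6* and *Nr1h4* had spreads within groups of 0.14, 0.21, 0.17 and 0.25. Their LH minus HH intervals were -0.23 to 0.13, -0.22 to 0.30, -0.30 to 0.13 and -0.29 to 0.31 on the log2 scale. The *Baat* probe used had a difference of -0.05, while the other *Baat* probe gave 0.20 ± 0.13, with an interval from -0.07 to 0.48.

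**Figure D4:**
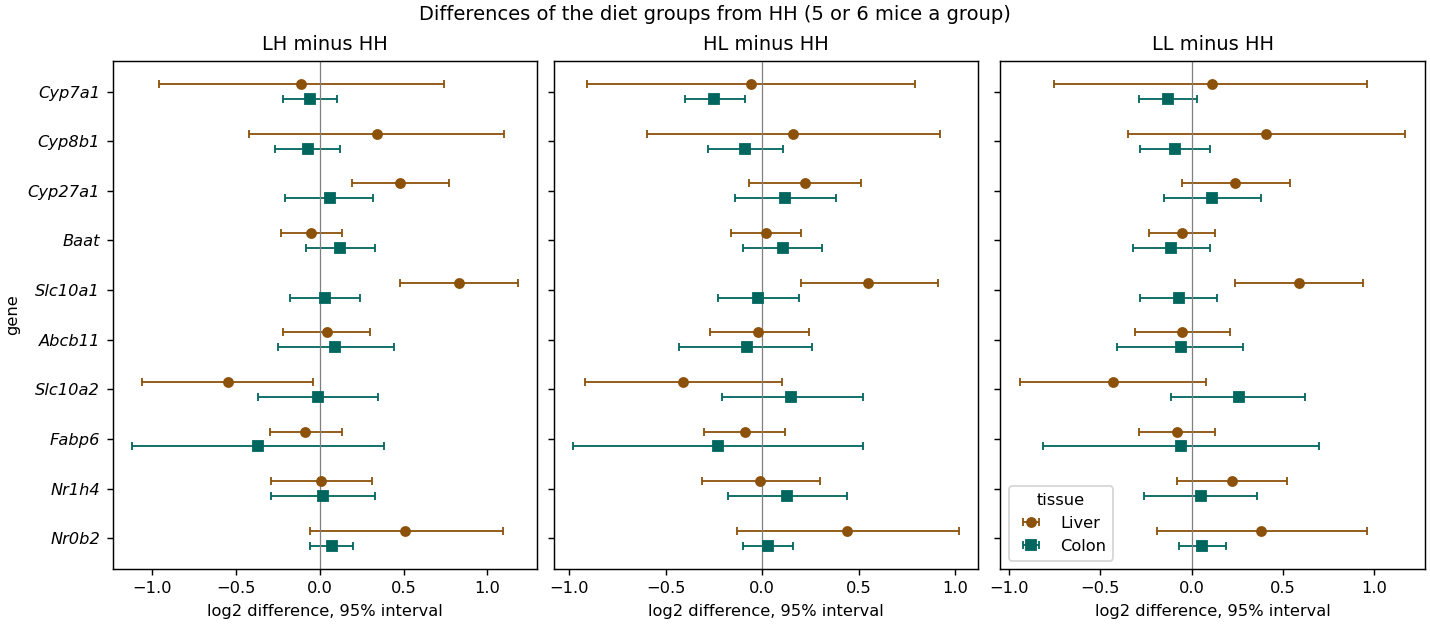
The log2 difference of LH, HL and LL from HH (horizontal axes, 3 panels) is plotted for the 10 genes with its 95% interval, in liver (brown circles) and colon (green squares). The liver interval of *Slc10a1* excludes 0 in all 3 panels and that of *Cyp27a1* and *Slc10a2* in the LH panel alone, before any adjustment for the number of probes.

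The wider lists gave no call in liver either. At an unadjusted p under 0.05 between LH and HH, 2 of 12 other synthesis enzymes were higher and none lower, 1 of 12 carriers was higher and 1 lower, and 2 of 11 regulators were higher, against 12% of all probes. Median differences were 0.10, 0.15 and 0.07 on the log2 scale. Among the genes with the lowest p for dam diet, the oxysterol hydroxylase gene *Cyp7b1* had 0.63 ± 0.34 (unadjusted p = 0.0739), *Scp2*, a sterol carrier of the peroxisome, 0.17 ± 0.11, the exporter subunit gene *Slc51b* -0.22 ± 0.11 and the canalicular pump gene *Abcc2* 0.10 ± 0.07. The nuclear receptor genes *Rxra* and *Hnf4a* had 0.20 ± 0.12 and 0.10 ± 0.07. *Akr1d1*, the steroid 5β-reductase of the pathway, chosen after its values were seen, averaged 1.69 in HH, 2.62 in HL, 2.47 in LH and 1.92 in LL, with an interaction of -1.48 ± 0.35 (unadjusted p = 0.000298, adjusted p = 0.292).

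Clock genes were examined beside these values. Bile acid synthesis is known to follow the time of day and of feeding. Of 13 clock genes, 4 were higher and 1 lower in LH than HH at an unadjusted p under 0.05 (12% of all probes) and 5 were higher in HL than HH (4.38%), with 0 passing the adjusted threshold in limma. The mean log2 ratio over the list ran from -0.15 to 0.60 in HH (median 0.28), from 0.45 to 0.71 in LH (median 0.56), from 0.52 to 0.69 in HL and from 0.22 to 0.65 in LL. By sign alone, 8 of the 13 genes were higher and 5 lower in LH than HH, so opposite changes partly cancel in that mean. *Tef*, a clock output factor, differed by 1.09 ± 0.36 between LH and HH on the log2 scale and *Clock* by -0.45 ± 0.16. Within groups, over 23 livers and as a description, the clock genes that ran closest with both members were *Per3* (r = 0.72 with *Slc10a1* and 0.74 with *Cyp27a1*) and, in the opposite direction, *Clock* (-0.60 and -0.56), chosen after their values were seen.

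Markers of cell types were also set beside the LH and HH livers. The mean log2 ratio over 5 hepatocyte markers overlapped between the groups, at 1.49 to 1.99 in HH and 1.61 to 2.15 in LH, and all 5 were detected on every liver array. All 5 had higher means in LH (median difference 0.18 on the log2 scale), 0 of them at an unadjusted p under 0.05. For dam diet 1 of the 5 was under that p, against 4.14% of all probes. It was *Apoa1*, at 0.22 ± 0.06 (limma, unadjusted p = 0.00227, adjusted p = 0.999). All 5 Kupffer cell and macrophage markers had lower means in LH (median difference -0.33), 1 of them at an unadjusted p under 0.05 (*Marco*, -1.08 ± 0.38, unadjusted p = 0.0103, adjusted p = 0.287). Their mean log2 ratio per mouse was 1.58 to 3.17 in HH and 1.47 to 2.73 in LH. Of 4 lymphocyte markers, *Ptprc*, carried by all white blood cells, had -0.61 ± 0.19 (unadjusted p = 0.00425, adjusted p = 0.246). *Apoa1*, *Marco* and *Ptprc* were chosen after their values were seen. The part of these markers in the values of *Slc10a1* and *Cyp27a1* was not tested. Genes of the exocrine pancreas were high in 1 liver, HL replicate 1 (mean log2 ratio 1.34 against a group median of -2.73).

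In colon, which asks the same of a tissue that recovers but does not make bile acids, 0 of the 10 genes passed in any of the 6 comparisons, and neither did any other probe. For none of the 10 were any groups free of overlap, which 0.177%, 0.0753%, 0.0364%, 0.0656%, 0.124% and 0.102% of all probes were for LH and HH, HL and HH, LL and HH, LL and HL, LL and LH, and LH and HL. At an unadjusted p under 0.05 the LH minus HH comparison held 0 of them (3.24% of all probes) and HL minus HH 1 (1.46%), *Cyp7a1*, by -0.25 ± 0.08 on the log2 scale (unadjusted p = 0.00389, adjusted p = 1). That probe was at or near background there, and the other probe gave -0.04 ± 0.07. The same *Cyp7a1* probe was the member with an unadjusted p under 0.05 between LH and HL (0.18 ± 0.08, 2.95% of all probes) and for offspring diet (-0.16 ± 0.05, 2.04%). *Baat* was lower in LL than in LH by 0.23 ± 0.10 on the log2 scale (unadjusted p = 0.0285, 2.8% of all probes), and its other probe gave -0.06 ± 0.13. It was also the member under that p between LL and HL (-0.22 ± 0.10, 1.02%) and for the interaction (-0.34 ± 0.14, 1.79%). No member was between LL and HH (1.72%) or for dam diet (2.11%).

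*Fabp6* varied more between colons than any other of the genes. Its log2 ratios ran from -0.70 to 0.85 in HH, from -0.94 to 1.12 in HL, from -1.01 to 0.05 in LH and from -1.19 to 1.37 in LL. All groups overlapped, and the spread within groups, 0.69, was above that of 99.7% of colon probes. *Slc10a2* averaged 2.22 ± 0.42 (SD, n = 6) in HH, 2.37 ± 0.23 in HL, 2.21 ± 0.24 in LH and 2.47 ± 0.38 in LL. *Abcb11*, *Slc10a2*, *Nr1h4*, *Cyp27a1* and *Slc10a1* also followed the slide. *Cyp27a1* had log2 ratios of -1.37 to -0.93 on slide 10 and of -0.69 to -0.47 on slide 12. *Slc10a1* had -3.31 to -3.06 and -3.67 to -3.46 on these slides. The 8 colons of slides 11 and 12 had *Abcb11* ratios of -4.56 to -4.23 against -4.28 to -3.65 on slides 7 to 10, which share their scan day, and each slide holds all 4 diets. In 1 colon, LL replicate 4, macrophage and lymphocyte markers were high (mean log2 ratios of 0.48 and 1.73 against group medians of -1.85 and 0.06).

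The diet differences of liver were then set against those of colon. For *Slc10a1* the LH minus HH difference in liver minus that in colon was 0.79 ± 0.20 on the log2 scale (limma joint fit, unadjusted p = 0.00025, adjusted p = 0.441), and 0.42 ± 0.19 for *Cyp27a1* (unadjusted p = 0.0362, adjusted p = 0.639). These were the only members under an unadjusted p of 0.05 for that contrast, which 7.53% of all probes met. None of the 10 passed the adjusted threshold in any tissue difference.

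Mice of the same group also differed from each other, and several of the genes did so together. After group means were removed, 8 of the 45 gene pairs correlated over 23 livers at an adjusted p under 0.05 (permutation test, 100000 resamples, Benjamini-Hochberg over the pairs), 5 positively and 3 negatively. Leaving out each liver moved that count from 3 to 13. The weakest of the 8 had a size of 0.55, which 17.8% of the member pairs and 7.47% of all pairs among 18265 named genes reached. *Cyp8b1* correlated with *Nr1h4* (Pearson r = 0.73, Spearman rho = 0.70, permutation p = 5e-05, adjusted p = 0.00225) and with *Cyp27a1* (r = 0.70, rho = 0.73, permutation p = 0.00028, adjusted p = 0.0057). *Cyp27a1* correlated with *Slc10a1* (r = 0.68, rho = 0.65, permutation p = 0.00038, adjusted p = 0.0057). Without the 2 mice farthest from the median of the first gene these were 0.59, 0.71 and 0.65. With slide means removed too they were 0.73, 0.70 and 0.69. In each of the 23 fits that left out a liver, all 3 kept an adjusted p under 0.05.

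*Cyp7a1* and its repressor's gene *Nr0b2* ran in opposite directions (r = -0.59, rho = -0.42, permutation p = 0.00228 for r and 0.051 for rho, adjusted p = 0.0245 and 0.177). The value was -0.46 without HH replicate 5, where it no longer passed (adjusted p = 0.136), -0.64 without the 2 mice farthest in *Cyp7a1*, -0.77 with slide means removed and -0.59 with the other *Cyp7a1* probe. It turned to 0.17 (adjusted p = 0.651) when the local background was used as deposited. *Cyp7a1* and *Cyp8b1*, both known targets of SHP, had r = 0.51 (rho = 0.45, permutation p = 0.0124, adjusted p = 0.0558). *Cyp8b1* with *Nr0b2* had r = -0.47 (permutation p = 0.0232, adjusted p = 0.0869). *Nr1h4*, whose receptor induces SHP, had a negative r with *Nr0b2* as well, -0.27 (permutation p = 0.214, adjusted p = 0.402).

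The other pairs were less firm. *Cyp7a1* correlated with *Nr1h4* (r = 0.56, rho = 0.56, permutation p = 0.00565, adjusted p = 0.0363) and gave 0.63 without the 2 farthest mice. The rho of this pair had an adjusted p of 0.0505, and its r kept an adjusted p under 0.05 in 16 of 23 fits that left out a liver. *Slc10a1* and *Slc10a2*, the hepatic and the intestinal importer, had r = -0.55 (rho = -0.63, permutation p = 0.00656, adjusted p = 0.0369). This pair kept its call in 14 of 23 such fits and gave -0.50 without the 2 farthest mice (adjusted p = 0.107). The other *Slc10a2* probe gave -0.21. *Slc10a2* with *Nr1h4* (r = -0.59, rho = -0.61, permutation p = 0.00272, adjusted p = 0.0245) gave -0.29 (adjusted p = 0.394) without them, though its rho had an adjusted p of 0.0188 over all livers and r kept an adjusted p under 0.05 in 20 of 23 fits that left out a liver. *Baat* with *Nr1h4* (r = 0.58, rho = 0.42, permutation p = 0.00392, adjusted p = 0.0294) gave 0.42 (adjusted p = 0.206) without them and kept its call in 18 of 23. The 2 probes of *Baat* had r = 0.09 with each other in liver, against 0.80 for *Cyp7a1* and 0.85 for *Slc10a2*, and the dimmer *Baat* probe had r = 0.18 with *Nr1h4*.

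**Figure D5:**
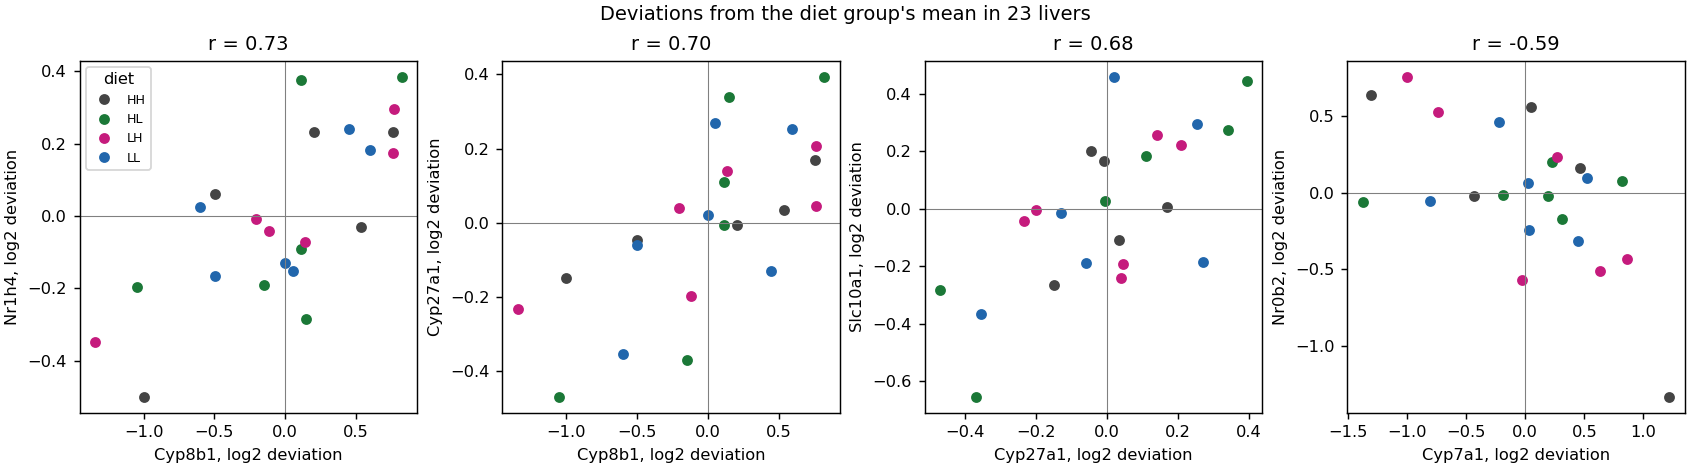
The deviation of each of 23 livers from its group mean (log2 scale, both axes) is plotted for *Cyp8b1* with *Nr1h4* and with *Cyp27a1*, *Cyp27a1* with *Slc10a1*, and *Cyp7a1* with *Nr0b2*, coloured by diet, with the Pearson r above each panel. The first 3 panels rise with r of 0.73, 0.70 and 0.68, and the last falls with r of -0.59, with 1 HH liver at its lower right corner.

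Over all 18264 named genes compared, the most alike to *Cyp7a1* within groups were *Tm6sf2* and *Sult1e1* (both r = 0.82, over 23 livers, a description), and to *Cyp8b1* *Ears2* (0.85) and *Acaca* (0.84), which encodes acetyl-CoA carboxylase of fatty acid synthesis. For *Cyp27a1* they were *Shmt1* (0.88), a folate-dependent serine enzyme, and *Actr8* (0.88). For *Slc10a1* they were *Amigo2* and *Bco2* (both 0.83), and for *Nr0b2* *Ckm* (0.81) and *Osgin1* (0.76). The genes most alike to the carriers and to *Baat* were *Zmiz2* (0.89) and *Igdcc3* (0.83) for *Baat*, *Rin2* (0.81) and *Midn* (0.79) for *Abcb11*, *Nid2* (0.84) and *Ect2* (0.78) for *Slc10a2*, and *Asb12* and *Hoxd9* (both 0.90) for *Fabp6*.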

How the data were processed

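The 48 Agilent 2-colour arrays (24 liver, 24 colon) were scanned by the authors with Feature Extraction 10.10.1.1, per the file headers. The authors deposited each spot's median intensity and local background in both channels, with the scanner software's processed intensity, and their own normalized log2 ratios, in which reference is divided by mouse. Per the submitters' processing notes that table was made with limma in R 3.0.2, and its values matched loess without background correction (r = 1 on all 48 arrays).

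Here R 4.3.3 and limma 3.58.1 were used. Background was corrected with normexp (offset 50), with a local background brighter than its spot replaced by the array's median background, then ratios were normalized by global loess and turned to mouse over reference. Outlier spots were left out, spots averaged per probe, and the 2 arrays of 1 HH animal (r of deviations 0.805, against at most 0.26 for other pairs) averaged. Probes were named through their accession (27050 of 41174). Number of arrays limits the precision.

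Groups were compared with lmFit and eBayes within each tissue, over probes with values in at least 2 mice of each group. A call needed an adjusted p (Benjamini-Hochberg) under 0.05 together with a change of over 1.5-fold. The model was tested on simulated data. The members and lists were chosen with earlier results of these data known. All members were named, and from the lists of other synthesis enzymes, carriers and regulators the 2 genes with the lowest p for dam diet. None of those lists held a call. Clock genes and cell type markers were not all named by this rule. The 2 most alike genes per member were taken by Pearson r over livers. Those of *Nr1h4* are not reported here. Nothing in the labels says how litters were shared, so p-values measure the spread between these mice and not between litters. Those for the diet of the dam may be too small if mice of a group shared a litter. Alternatives covered background, normalization, channel, weights, slide, thresholds and left-out mice.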

Additional observations from a re-analysis of the deposited data

Results flagged for a closer look

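Of the 80 groups of 5 or 6 mice examined (10 genes, 2 tissues, 4 diets), 3 held a mouse whose gap to its nearest neighbour was large for the group's range, by a criterion that chance meets in about 1 in 20 groups. *Cyp8b1* had a log2 ratio of -2.54 in colon HL replicate 5, against -2.19 for the next mouse, in a tissue where its probe was near background. *Baat* had 2.76 in liver LL replicate 3, against 2.96. *Nr0b2* had -0.49 in colon LL replicate 1, against -0.75.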

How the results depend on the processing

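The number of the 10 genes called between diets was 0 in liver and colon in all settings run but 4. It was 1 (*Slc10a1*) for the liver diet comparisons with all 8 groups in a joint fit, with only the groups compared and with the 2 arrays of 1 animal counted as 2 mice, and 1 (*Slc10a1*, interaction -0.92, adjusted p = 0.0486) for the factorial contrasts with array weights, which called 499 probes for that contrast where the fit without weights called 0. Array weights also called 3 probes between LH and HH, and the slide as a block and all 8 groups called 4 and 52 for the interaction. Leaving out each mouse gave 0 called members throughout. Between liver and colon 9 or 10 of the 10 genes were called under every alternative and every left-out mouse, the exception being *Nr1h4*, whose difference ran from 0.12 to 0.63. The 2 directions that turned were the *Baat* interaction in colon (-0.34, 0.08 with the local background as deposited) and the correlation of *Cyp7a1* with *Nr0b2* (0.17 in that setting). The cause was not tested. Of the correlated pairs, 8 of 45, leaving out each liver (an alternative chosen after seeing the data) left from 3 to 13: 3 without LH replicate 3, 4 without HH replicate 3 or HH replicate 5, and 13 without HH replicate 2. The median LH minus HH difference of *Slc10a2* within slides was -1.03. By replicate number, no paired analysis was possible because the labels give no number that mice of different groups share. Pairing by slide, which holds 1 array of each diet, was possible, and the slide as a block changed no call of a member. Signal over background limits *Cyp7a1* and *Cyp8b1* in colon, and the filter on dim probes kept 8 of the 10 genes there.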
